A study of Mus musculus with 1536 samples.

Results

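The expression of 8 genes for G protein-coupled receptors, Nmbr, Tacr3, Prlhr, Sstr1, Cnr1, S1pr3, Prokr1 and Prokr2, was examined in single serotonin neurons of the mouse dorsal and median raphe. They are 8 of the 53263 genes in the expression table, and all 8 had a read in at least 3 cells, as did 25522 genes in all. They were selected because earlier work on these values had shown them at a high level in small sets of neurons. Their detection, their levels and their relation to these sets, which are the values that selected them, are therefore given as a description. Across the 999 cells the 8 genes fell into 3 patterns. Nmbr, Tacr3, Prlhr, Sstr1 and Cnr1 were each detected in 38.9% to 61.1% of 36 neurons with at least 50 CPM (read counts scaled to the total of the cell) of the kainate receptor gene Grik1, of which 8 held all 5 and 7 held none of the 8. Tacr3, in some cells with Nmbr, accompanied S1pr3 in neurons with the transcription factor gene Zeb2. Prokr1 and Prokr2 were at 0 in both of these sets and were detected in other neurons.

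Serotonin neurons of the raphe nuclei project through most of the forebrain, and their firing is set in part by peptides and lipids that act on receptors of this class. Nmbr encodes the receptor for neuromedin B, a bombesin-like peptide, and Tacr3 the tachykinin receptor that prefers neurokinin B. Prokr1 and Prokr2 encode the receptors for the prokineticins, and all of these couple mainly to Gq, which releases calcium from internal stores through phospholipase C. Prlhr encodes the receptor for prolactin-releasing peptide. Sstr1, a somatostatin receptor, and Cnr1, the cannabinoid receptor of the brain, couple to Gi and Go and lower transmitter release or excitability. S1pr3 is a receptor for the lipid sphingosine-1-phosphate and couples to several classes of G protein.

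The cells were tdTomato-positive neurons of adult C57BL/6J mice 40 to 45 days old that carried a Sert-Cre transgene and the Ai14 reporter, in which Cre turns on the red fluorescent protein. Every cell shares these alleles, no treatment was given, and the reporter marks any cell that has ever used the Sert promoter, so that sorting rather than current expression set which cells were taken. The dissection labelled Principal DR gave 290 cells on 5 plates and that labelled All DR gave 709 cells on 11 plates. By the study's methods the latter held the caudal dorsal raphe and the median raphe as well, which the labels do not name, and several brains were used for each dissection. As no label ties a cell to a brain, each dissection is 1 sample, no p-value was computed, and the plates of a dissection, between 27 and 93 cells each, show the spread. The deposited values are CPM. The reads per cell had a median of 869546 in All DR and 755926 in Principal DR, over a range of 96834 to 2780443. Tph2 and Fev, which define serotonin neurons, had reads in 999 of 999 cells. The study describes the 999 as Tph2-positive, so that for Tph2 this may follow from their selection. The dissections differ in region, plates and animals, which cannot be told apart here.

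The 8 genes lie on 8 chromosomes of the mouse genome GRCm38, the build of the files. Nmbr lies at chr10:14705591-14770850, Tacr3 at chr3:134829007-134934579, Prlhr at chr19:60466732-60468304 and Sstr1 at chr12:58211772-58214444. Cnr1 lies at chr4:33924593-33948831, S1pr3 at chr13:51408639-51422797, Prokr1 at chr6:87578591-87590743 and Prokr2 at chr2:132337733-132385447. Reads were counted without strand, so the counts of Nmbr, which shares 366 exonic bases with the antisense gene B230364G03Rik, and of S1pr3, which shares 45 bases with the noncoding gene Gm32834, are uncertain there. The longest run that the transcripts of any 2 of the 8 genes share, 34 bases between Prokr1 and Prokr2, is shorter than a read of 75 bases.

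The 250 bases before the transcription start were read for the 7 genes with a promoter entry in RefSeq on GRCm38.p6, on the strand of the gene. Those of Nmbr, Tacr3 and Prlhr are shown because these receptors were found in the same cells, that of S1pr3 because it marks the other set, and that of Prokr2 because it was at 0 in both. Capitals mark matches to the letters ACANNTGT, a palindrome bound by Irx factors, or to the E-box CACCTG on either strand, which Zeb factors bind. Irx2 and Zeb2 were detected in the sets of cells described here.
Nmbr, chr10:14759697-14759946, plus strand: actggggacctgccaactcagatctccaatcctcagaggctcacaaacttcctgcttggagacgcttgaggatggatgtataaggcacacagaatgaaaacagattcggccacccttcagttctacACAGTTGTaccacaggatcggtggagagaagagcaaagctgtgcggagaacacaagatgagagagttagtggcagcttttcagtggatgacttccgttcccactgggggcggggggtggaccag
Tacr3, chr3:134828757-134829006, plus strand: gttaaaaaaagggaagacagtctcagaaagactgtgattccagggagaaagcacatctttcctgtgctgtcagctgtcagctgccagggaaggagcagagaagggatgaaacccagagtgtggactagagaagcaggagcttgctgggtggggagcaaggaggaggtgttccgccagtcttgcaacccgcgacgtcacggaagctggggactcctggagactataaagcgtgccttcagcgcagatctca
Prlhr, chr19:60468305-60468554, minus strand: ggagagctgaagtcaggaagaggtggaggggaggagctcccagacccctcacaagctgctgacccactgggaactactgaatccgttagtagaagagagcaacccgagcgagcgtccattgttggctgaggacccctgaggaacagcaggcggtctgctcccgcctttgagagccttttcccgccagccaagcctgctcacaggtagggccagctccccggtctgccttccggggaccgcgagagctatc
S1pr3, chr13:51408368-51408617, plus strand: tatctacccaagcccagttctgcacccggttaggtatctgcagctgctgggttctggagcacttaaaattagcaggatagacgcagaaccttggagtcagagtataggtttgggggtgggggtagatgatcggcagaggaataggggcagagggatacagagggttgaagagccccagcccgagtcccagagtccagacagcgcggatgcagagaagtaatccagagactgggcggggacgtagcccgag
Prokr2, chr2:132385448-132385697, minus strand: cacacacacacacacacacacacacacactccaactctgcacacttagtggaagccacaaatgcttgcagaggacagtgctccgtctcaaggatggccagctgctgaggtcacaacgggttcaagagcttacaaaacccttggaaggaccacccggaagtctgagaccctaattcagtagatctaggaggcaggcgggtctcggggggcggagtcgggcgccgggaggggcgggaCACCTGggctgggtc
The Nmbr window held 1 match to the Irx letters, ACAGTTGT at 124 bases before the start, and the Prokr2 window held 1 CACCTG at 15 bases before the start. The other windows shown, and those of Cnr1 and Prokr1, held neither. Of 32851 windows of this length, 6.31% held the Irx letters and 17.2% the E-box. The start that RefSeq gives for Nmbr lies within the longer gene span given above, which begins upstream of it.

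Among the receptors coupled to Gq, Nmbr had at least 1 read in 50 of 999 cells (5.01%, 95% exact interval 3.74 to 6.55%) and Tacr3 in 57 (5.71%, 4.35 to 7.33%). The level of Nmbr in its positive cells ran from 0.585 through a median of 24.9 to 166 CPM, and that of Tacr3 from 0.986 through 42.2 to 275 CPM. Most of these cells were far above a single read, since 41 of 50 Nmbr cells and 49 of 57 Tacr3 cells had at least 5. Prokr2 was detected in more cells, 119 (11.9%, 9.97 to 14.1%), with a median of 15.2 CPM and a highest value of 198 CPM. Prokr1 was the rarest of the 8, in 18 cells (1.80%, 1.07 to 2.83%), at a median of 21.8 CPM and with 118 CPM in the highest cell. The intervals cover the counting of cells only. They treat cells as independent and leave out the spread between plates and between brains. For the levels, reads without molecular identifiers are not independent molecules.

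Prlhr was detected in 42 cells (4.20%, 3.05 to 5.64%) at a median of 13.6 CPM and a highest value of 87.7 CPM. Of the receptors coupled to Gi, Cnr1 was found in 238 cells (23.8%, 21.2 to 26.6%) at levels of 0.779 to 585 CPM around a median of 20.2 CPM. Sstr1 was found in 66 cells (6.61%, 5.15 to 8.33%) and at the lowest level, a median of 5.78 CPM or 4 reads. It was the gene nearest to the limit of detection, since only 31 of its 66 cells had at least 5 reads and its share was 4.24% after every cell was thinned to 250000 reads. S1pr3, the sphingosine-1-phosphate receptor, was the most widely detected of the 8, in 251 cells (25.1%, 22.5 to 27.9%) at a median of 13.6 CPM and a highest value of 327 CPM. Most S1pr3 and Cnr1 cells held little of it, as 26 of 251 and 69 of 238 reached 50 CPM.

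Per kilobase of exon, the median level in positive cells was highest for Tacr3 (11.2 CPM per kb), followed by Prlhr (8.62), Nmbr (7.72), Prokr1 (5.16), Cnr1 (3.14), S1pr3 (3.04), Sstr1 (2.83) and Prokr2 (1.91 CPM per kb). Neighbours in this order overlapped in their middle quartiles, so that the order of any 2 neighbours is within the spread between cells. The mean level over all 999 cells, which also counts how many cells were positive, was ordered otherwise, with Cnr1 (1.96 CPM per kb) and S1pr3 (1.48 CPM per kb) first and Prokr1 (0.117 CPM per kb) last.

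The dissection was compared first, which asks which receptors belong to neurons outside the principal dorsal raphe. A gene was called higher or lower where the log2 ratio of its mean CPM plus 1 was at least 1 in size. Of the 8 receptors, 4 were called higher in All DR, beside 0.901% of the 25522 genes, and 1 was called lower, beside 1.54%. Nothing is read from these shares, since the same values selected the genes. Tacr3 had a read in 55 of 709 All DR cells and in 2 of 290 Principal DR cells, and its mean was 5.03 against 0.160 CPM, a log2 ratio of 2.38. The 2 Principal DR cells, both on plate SER12, had 42.2 and 4.13 CPM. Nmbr was detected in 46 against 4 cells, with a mean of 3.08 against 0.220 CPM and a log2 ratio of 1.74. Its 4 Principal DR cells had 3.25, 8.19, 18.8 and 33.7 CPM, all under the 50 CPM that 16 of the All DR cells reached. Prlhr was detected in 39 against 3 cells (log2 ratio 1.06), and the 3 held 2.62, 5.61 and 10.3 CPM. S1pr3 was found in 206 (29.1%) against 45 cells (15.5%), with a log2 ratio of 1.13. The calls for Prlhr without plate SER51 and for S1pr3 without plate SER52 came just under the limit, each at 0.98.

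Prokr2 went the other way. It had a read in 71 of 709 All DR cells (10.0%, 7.90 to 12.5%) and in 48 of 290 Principal DR cells (16.6%, 12.5 to 21.3%), and its mean was 1.90 against 6.09 CPM, a log2 ratio of -1.29. This call rested on 1 plate, as the ratio was -0.53 without plate SER12. Cnr1 and Prokr1 were detected at like shares in both dissections, Cnr1 in 24.0% and 23.4% and Prokr1 in 1.83% and 1.72% of cells. In its positive cells Cnr1 had a median of 18.3 CPM in All DR and 37.7 CPM in Principal DR, and 27 of the 69 cells at 50 CPM or more were from Principal DR. Sstr1 was detected in 7.19% and 5.17% of cells. No label tells median raphe or caudal cells from the other cells of All DR, so these shares do not place any of the receptors in those regions.

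Between plates of 1 dissection the shares varied widely. In All DR the share of cells with Tacr3 was 7.87% ± 4.42 (SD, n = 11 plates), from 1.92% to 16.2%, and in Principal DR it was 0.430% ± 0.962 (SD, n = 5 plates), from 0 to 2.15%. For Nmbr the shares were 6.85% ± 4.01 and 1.15% ± 1.15, and for Prlhr 5.70% ± 3.02 and 0.895% ± 1.23. S1pr3 was found in 28.6% ± 7.27 of the cells of an All DR plate and in 14.3% ± 3.71 of those of a Principal DR plate. For Prokr2 the values were 9.50% ± 4.61 and 16.9% ± 5.16, for Cnr1 23.9% ± 3.71 and 21.8% ± 9.00, and for Sstr1 7.01% ± 3.03 and 4.76% ± 3.82. The ranges of the plates of both dissections overlapped for every one of the 8 genes. Tacr3, Sstr1, Cnr1 and S1pr3 had a positive cell on 11 of 11 All DR plates, and Nmbr, Prlhr and Prokr2 on 10 of 11.

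**Figure D1:**
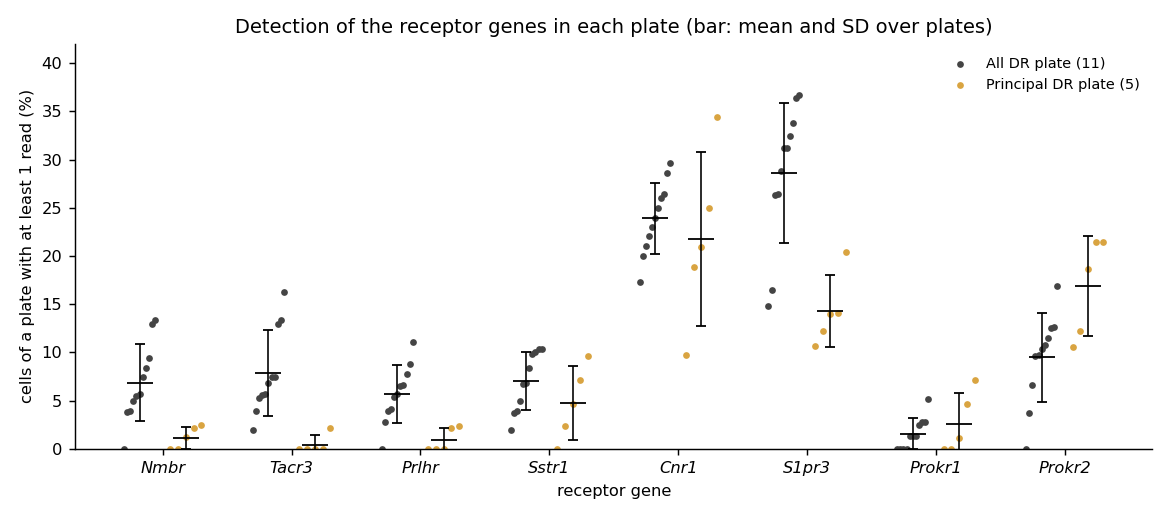
Share of the cells of each plate with at least 1 read of each receptor gene, for the 11 All DR plates (dark points) and the 5 Principal DR plates (yellow points), with the mean and SD over plates. Tacr3, Nmbr and Prlhr lie at or below 2.44% on every Principal DR plate, Prokr2 has the higher mean in Principal DR, and the points of both dissections overlap for each gene.

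The next comparison asks which receptors accompany Grik1. Grik1 reached 50 CPM in 36 cells on 12 plates, 35 of them from All DR, and these are called Grik1-high. In the 3 cells just above this level Grik1 was at 51.3, 55.6 and 56.0 CPM with 0 of the receptors detected, and in the 3 just below it was at 46.8, 48.9 and 49.2 CPM, with 1 receptor, Cnr1, in the last. Within All DR, 5 of the 8 receptors were called higher in the 35 Grik1-high cells than in the other 674, beside 2.37% of the 25522 genes, and 1 was called lower, beside 2.22%. The set is named in the rule that selected the receptors, so that these counts carry no further weight. From these same cells the study had already listed Nmbr, Tacr3, Prlhr, Sstr1 and Cnr1 among the receptors of its median raphe group MR-3. Whether the Grik1-high cells belong to that group was not tested.

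Nmbr was detected in 18 of the 35 cells (51.4%, 34.0 to 68.6%) and in 28 of the other 674 (4.15%). Over the 18 cells its level ran from 5.26 through a median of 68.0 to 152 CPM, and the mean over all cells of each side was 39.2 against 1.20 CPM, a log2 ratio of 4.19. Of the 7 plates with at least 3 Grik1-high cells, Nmbr was higher in the set on 6 and was without a read on both sides on plate SER48. Tacr3 was also detected in 18 cells, at 11.1 to 194 CPM around a median of 63.1 CPM, against 37 of the others (5.49%). Its means were 40.1 and 3.21 CPM, the log2 ratio was 3.29, and it was higher in the set on 6 of 7 plates. The 2 sides overlapped for both genes, as the set held cells at 0 and the highest values among the other cells were 166 CPM for Nmbr and 275 CPM for Tacr3.

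Prlhr was detected in 14 of the 35 cells (40.0%) against 25 of the others (3.71%), and in the positive cells it lay between 11.9 and 87.7 CPM, with a median of 32.6 CPM. Its log2 ratio was 3.48 and it was higher in the set on 4 of 7 plates. All 4 cells of the series with 50 CPM or more of Prlhr were Grik1-high. Sstr1 was found in 16 cells (45.7%) against 35 (5.19%), with a median of 23.9 CPM, a log2 ratio of 2.99 and a higher mean on 5 of 7 plates. Cnr1 was the most frequent, in 22 of the 35 (62.9%) against 148 of the others (22.0%). The level of Cnr1 in these 22 cells ran from 4.37 through 102 to 386 CPM, and the means were 94.9 against 7.21 CPM, a log2 ratio of 3.55, with a higher mean on 6 of 7 plates. Of the summed CPM of each gene over all 999 cells, the 36 Grik1-high cells held 61.1% for Nmbr, 61.5% for Prlhr, 43.2% for Sstr1, 38.9% for Tacr3 and 26.4% for Cnr1.

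The other receptors did not follow this pattern. S1pr3 was detected in 8 of the 35 cells (22.9%) and in 198 of the others (29.4%), with a log2 ratio of 0.71, and it was higher in the set on 3 of 7 plates. That ratio came from 1 cell of plate SER52 with 327 CPM, and was -0.50 without that plate. Prokr2 had 0 reads in the 35 cells, which allows a share of up to 8.57%, against 71 of the others (10.5%, mean 2.00 CPM). Over pooled reads, with 3 reads in all put in for the set, Prokr2 was 18.7-fold lower. This figure is not a lower bound, as reads cluster within cells and the 8.57% allowed is near the 10.5% of the others. Prokr1 also had 0 reads there, against 13 of the others (1.93%), a share that 35 cells are too few to tell from 0.

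**Figure D2:**
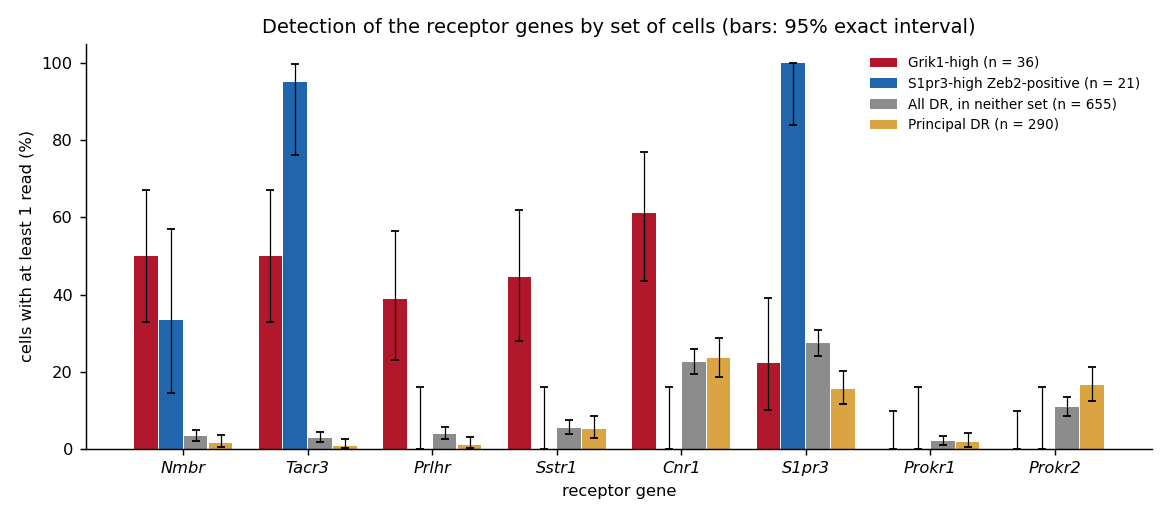
Share of cells with at least 1 read of each receptor gene, with its exact 95% interval, in Grik1-high cells, in S1pr3-high Zeb2-positive cells, in All DR cells of neither set and in Principal DR cells, which include 1 cell of each set. Bars of Nmbr, Tacr3, Prlhr, Sstr1 and Cnr1 are tallest among the Grik1-high cells or, for Tacr3, among the S1pr3-high cells, where S1pr3 is at 100% by definition, and Prokr1 and Prokr2 have no bar in either set.

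The Grik1-high cells were not alike. Among the 19 with 100 CPM or more of Grik1, Cnr1 was detected in 18, Nmbr in 16, Sstr1 in 15, Tacr3 in 13 and Prlhr in 12, and the mean number of the 8 receptors per cell was 4.11. Among the 17 cells between 50 and 100 CPM, Tacr3 was detected in 5, Cnr1 in 4, Nmbr and Prlhr in 2 each and Sstr1 in 1, a mean of 1.06 receptors per cell. In the 50 cells with 20 to 50 CPM of Grik1, set beside the 820 without a Grik1 read, Nmbr was detected in 4.00% against 3.29%, Tacr3 in 8.00% against 3.78%, Prlhr in 0 against 3.05%, Sstr1 in 8.00% against 5.37% and Cnr1 in 20.0% against 23.3%. S1pr3 was detected in 14.0% against 26.1% of these cells, Prokr2 in 2.00% against 14.1% and Zeb2 in 36.0% against 12.6%. The 19 cells with more receptors were the shallower ones, with a median of 529828 reads against 868692 in the 17. Zeb2, which encodes a zinc finger repressor, divided the same cells, but not apart from the Grik1 level. It had a read in 9 of the 36, all of them among the 17 cells between 50 and 100 CPM of Grik1. Of these 9, 7 also had reads of the mechanosensitive channel gene Piezo2. Nmbr, Prlhr and Sstr1 had 0 reads in the 9, while Cnr1 had reads in 1 and Tacr3 in 2. In the 27 without Zeb2, Cnr1 was detected in 21, Nmbr in 18, Tacr3 and Sstr1 in 16 each and Prlhr in 14.

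Irx2, a homeobox transcription factor gene, went with the receptors within the Grik1-high set, but not apart from the Grik1 level. It had a read in 15 of the 19 cells with 100 CPM or more of Grik1 and in 5 of the 17 between 50 and 100 CPM. Of the 20 Grik1-high cells with an Irx2 read, 16 had Cnr1, 14 had Nmbr, 14 had Tacr3, 13 had Sstr1 and 12 had Prlhr, a mean of 3.60 of the 8 receptors per cell. The 16 without Irx2 had a mean of 1.5, and the 8 of these that also lacked Zeb2 a mean of 2.13. Outside the set Irx2 was not accompanied by them to this extent, since in its 144 positive cells there Nmbr was detected in 9, Prlhr in 14, Tacr3 in 7 and Sstr1 in 8, a mean of 0.694 per cell. Nrp2, a semaphorin co-receptor gene, had reads in 22 of the 27 Grik1-high cells without Zeb2 and in 0 of the 9 with it. By Grik1 level, Nrp2 had reads in 17 of the 19 cells and in 5 of the 17.

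**Figure D3:**
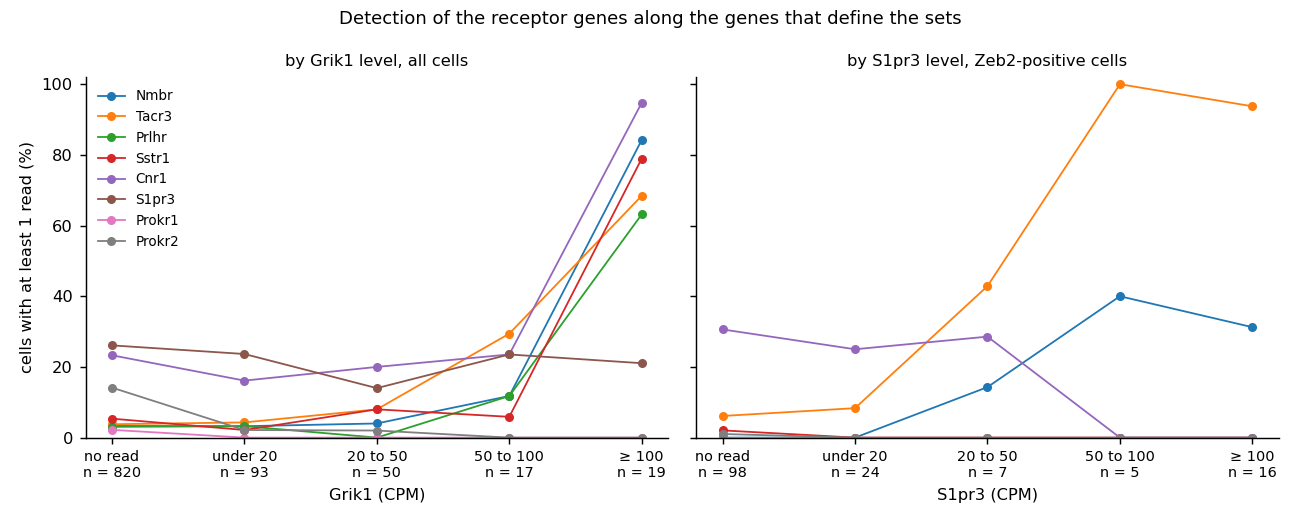
Share of cells with at least 1 read of each receptor gene, by the CPM of Grik1 over all 999 cells (left) and by the CPM of S1pr3 over the 150 Zeb2-positive cells (right), with the number of cells in each class below it. On the left the lines of Nmbr, Tacr3, Prlhr, Sstr1 and Cnr1 are at or below 29.4% up to 100 CPM and at 63.2% to 94.7% above it, and on the right that of Tacr3 climbs from 6.12% to 100% and 93.8% while that of Cnr1 ends at 0.

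The second set was formed by S1pr3 itself, which reached 50 CPM in 26 cells. Zeb2 had a read in 21 of them, 20 from All DR on 8 plates and 1 from Principal DR, and these 21 are called S1pr3-high Zeb2-positive. Just inside the limit were cells at 53.1, 53.5 and 58.1 CPM, all with Tacr3, and just outside it were Zeb2-positive cells at 28.2, 29.2 and 37.5 CPM, of which the first 2 had 173 and 263 CPM of Tacr3. The levels of S1pr3 in the set, from 53.1 through a median of 138 to 327 CPM, follow from its definition. Within All DR, of the 7 receptors other than S1pr3, 2 were called higher in the 20 cells than in the other 689, beside 2.72% of the 25522 genes, and 4 were called lower, beside 5.23%. These shares again bear on how the receptors were selected.

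Tacr3 was detected in 20 of the 20 All DR cells of the set, which allows a share down to 83.2%, and in 35 of the other 689 (5.08%). Its level in the 20 cells ran from 11.5 through a median of 72.9 to 275 CPM. The means were 83.4 against 2.75 CPM, a log2 ratio of 4.49, and Tacr3 was higher in the set on 4 of 4 plates with at least 3 such cells, by a log2 ratio of 2.84 to 7.49. The one cell of the set without Tacr3 was that from Principal DR, which had 112 CPM of S1pr3 and 4.87 CPM of Zeb2, the latter 2 reads. Nmbr was detected in 7 of the 20 (35.0%) against 39 (5.66%), at 1.56 through 18.3 to 89.4 CPM, a log2 ratio of 1.52 that was higher on 2 of 4 plates and fell to 0.75 without plate SER50. All 7 Nmbr cells of the set held Tacr3 as well.

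The other receptors were at 0 in all 21 cells, which allows a share of up to 14.3% for each. In the rest of All DR, Cnr1 was detected in 170 of 689 cells (24.7%), Prokr2 in 71 (10.3%), Sstr1 in 51 (7.40%), Prlhr in 39 (5.66%) and Prokr1 in 13 (1.89%). Only the share of Cnr1, with 24.7%, was above what 0 of 20 cells allows, 15.0%. Over pooled reads, with 3 reads put in for the set, Cnr1 was 62.7-fold lower. As reads cluster within cells, this figure is not a lower bound. The log2 ratios behind the calls of lower genes depend on the pseudocount, since 1 side is at 0, and are not given.

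Neither S1pr3 nor Zeb2 alone marked these cells. The 5 cells with 50 CPM or more of S1pr3 and no Zeb2 read had 0 reads of Tacr3, Nmbr and Prlhr, and 1 of them had both Cnr1 and Sstr1. In the 129 Zeb2-positive cells outside the set Tacr3 was detected in 11 (8.53%), Nmbr in 1 and Prlhr in 0, while Cnr1 was found in 38 (29.5%) and S1pr3, below 50 CPM or none, in 31. Most of those 129 cells had Piezo2, in 106, and none of the 21 had it. In the 21 cells the calcitonin receptor gene Calcr was detected in 20, the opioid receptor gene Oprm1 in 20, the relaxin receptor gene Rxfp1 in 19, Met in 19, Sox13 in 17 and the incretin receptor gene Gipr in 13. Rxfp1 and Met were not particular to the 21, with reads in 95 and 90 of the 106 cells with Zeb2 and Piezo2. In those 106 Calcr had reads in 1, Gipr in 9, and Oprm1 and Sox13 in 0. Over all cells of both dissections, Calcr had reads in 315, Sox13 in 153, Oprm1 in 146 and Gipr in 97. By detection they were thus not particular to the 21 either. Of the 243 cells with 50 CPM or more of Calcr, 127 were from All DR and 19 were in the set. The study associated Calcr, Oprm1, Rxfp1, Met, Sox13 and Gipr with its caudal dorsal raphe group on these same cells. Their presence is therefore not independent evidence of that name. In situ hybridization by the study on other tissue also found Tacr3 and Met concentrated in serotonin neurons of the caudal dorsal raphe, below the aqueduct. Those images were not examined here. A single cell was in both sets. It came from plate SER52 and had 56.3 CPM of Grik1, 327 CPM of S1pr3, 107 CPM of Zeb2 and 121 CPM of Tacr3, with 0 of the 6 other receptors.

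**Figure D4:**
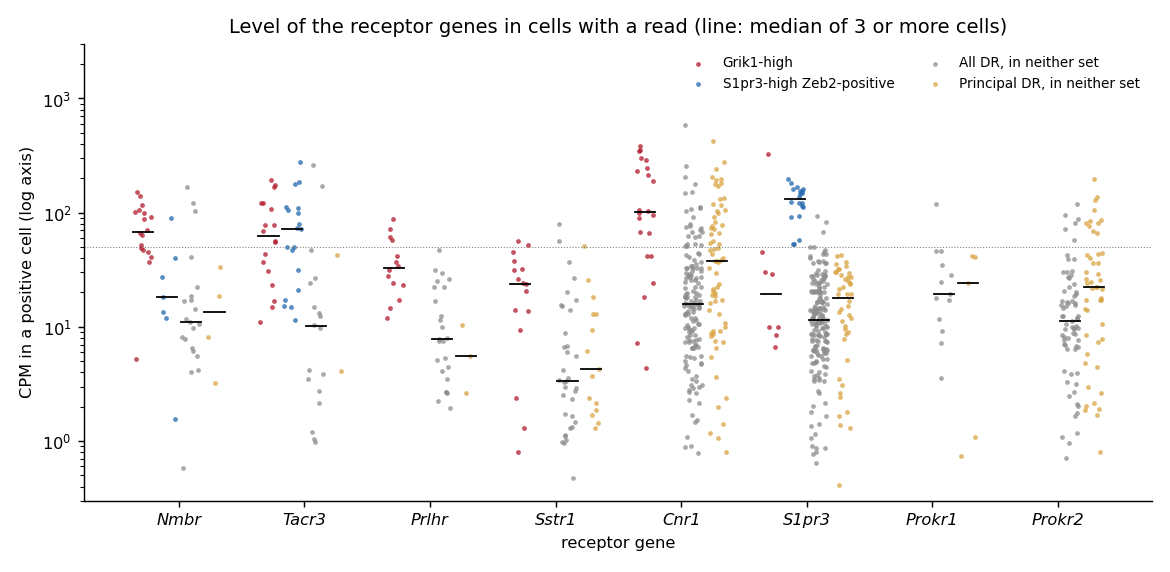
CPM of each receptor gene in every cell with at least 1 read, on a log axis, by set of cells, with the median where there are 3 or more cells and a dotted line at 50 CPM. The cell in both sets is drawn with the Grik1-high cells. Medians of Nmbr, Tacr3, Prlhr, Sstr1 and Cnr1 are higher in Grik1-high cells than in All DR cells of neither set, and single cells outside the sets reach like levels.

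Outside both sets Nmbr, Tacr3, Prlhr and Sstr1 were detected at lower shares and lower median levels than in Grik1-high cells. In the 655 All DR cells of neither set Nmbr was detected in 21 (3.21%) at a median of 10.9 CPM, Tacr3 in 18 (2.75%) at 10.1 CPM, Prlhr in 25 (3.82%) at 7.84 CPM and Sstr1 in 35 (5.34%) at 3.39 CPM. Cnr1 was found in 148 of these 655 cells (22.6%) at a median of 15.7 CPM, and S1pr3 in 179 (27.3%) at 11.5 CPM, a share above the 22.2% of Grik1-high cells. Only 3 of these 21 Nmbr cells and 2 of the 18 Tacr3 cells reached 50 CPM, and these 5 held other genes of the sets. The 3 Nmbr cells, 1 on plate SER52 and 2 on plate SER57, had 166, 121 and 103 CPM of Nmbr with 585, 178 and 110 CPM of Cnr1 and 47.1, 31.4 and 25.1 CPM of Prlhr. They also had Irx2 at 16.2, 77.4 and 101 CPM, and Grik1 was at 0 in all 3. Both Tacr3 cells had Zeb2, Calcr and Met reads and 29.2 and 28.2 CPM of S1pr3. Of the cells at 50 CPM or more, 81.3% of the 16 Nmbr cells and 91.3% of the 23 Tacr3 cells were in the sets, whereas only 50.0% of the 50 cells with any Nmbr read were.

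Prokr1 and Prokr2, the prokineticin receptors, had 0 reads in all 56 cells of the sets, and of the 119 Prokr2 cells 71 were All DR and 48 Principal DR cells. The highest Prokr2 cell had 198 CPM, and of the 17 cells at 50 CPM or more 11 were from Principal DR. Ret, the GDNF-family co-receptor gene, had reads in 92 of the 119 Prokr2 cells, and of the cells with 50 CPM or more of Ret 37.3% had Prokr2. Of the 18 Prokr1 cells 13 were from All DR, on 7 plates, and 5 from Principal DR. The stress peptide gene Crh had reads in 15 of the 18 and the transcription factor gene Maf in 18 of 18, whereas over all cells Crh had reads in 80 and Maf in 149. The 5 Principal DR cells had 0.746, 1.08, 24.1, 40.7 and 42.0 CPM of Prokr1, and the 4 with the higher Prokr1 values had 50.4 to 129 CPM of Crh. Both receptors were detected together in 5 cells.

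The number of the 8 receptors with a read in the same cell was 0 in 474 of 999 cells, 1 in 316, 2 in 137 and 3 or more in 72. The mean was 2.67 in the 36 Grik1-high cells, 2.29 in the 21 S1pr3-high Zeb2-positive cells, 0.779 in the 655 All DR cells of neither set and 0.655 in the 290 Principal DR cells. Of the 36 Grik1-high cells 19 (52.8%) had 3 or more, against 35 of the 655 (5.34%) and 11 of the 290 (3.79%). The median depth was 764796 reads in Grik1-high cells and 886865 in All DR cells of neither set, so that depth was lower where more receptors were found.

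**Figure D5:**
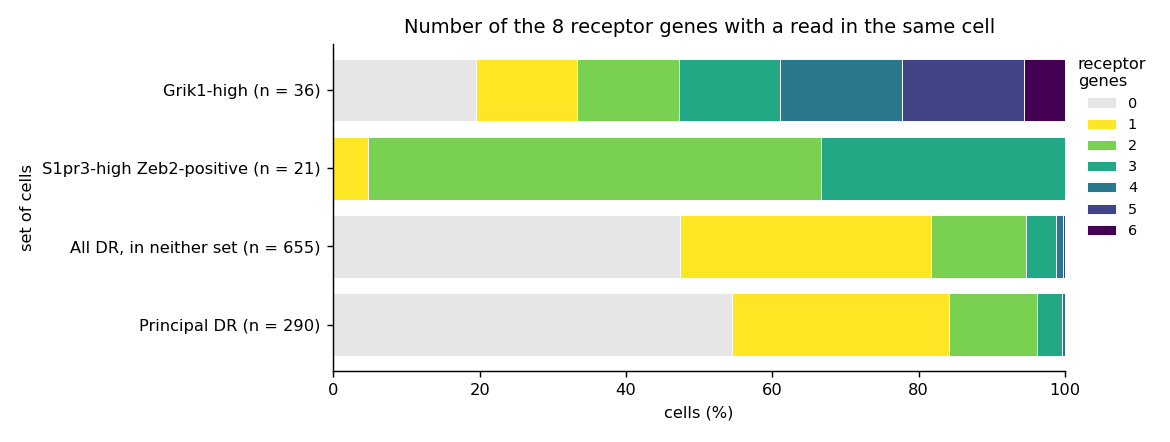
Percent of cells by the number of the 8 receptor genes with at least 1 read in the same cell, for 4 sets of cells, of which Principal DR includes 1 cell of each of the first 2. Grik1-high cells reach 6 receptors and 52.8% of them have 3 or more, the S1pr3-high cells have 2 or 3 except for 1 cell, and 47.3% of All DR cells of neither set have none.

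Over all cells 52 combinations were seen, the absence of all 8 included. In the Grik1-high set 7 cells had none of the 8, and the most frequent combination of detected receptors was Nmbr, Tacr3, Prlhr, Sstr1 and Cnr1, in 6 cells, while 2 further cells, from plates SER51 and SER56, had S1pr3 in addition. The first of these 2 had 152 CPM of Nmbr, 17.0 of Tacr3, 61.4 of Prlhr, 37.8 of Sstr1, 386 of Cnr1 and 8.50 CPM of S1pr3. All 14 Prlhr cells of the set had Cnr1, 13 of them had Nmbr and 11 had Sstr1. Nmbr and Tacr3, which appeared in 18 cells each, shared 11. In the S1pr3-high Zeb2-positive set there were only 3 combinations, Tacr3 with S1pr3 in 13 cells, these with Nmbr in 7 and S1pr3 alone in 1.

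Over all 999 cells Nmbr and Tacr3 shared 23 cells, which is 46.0% of the Nmbr and 40.4% of the Tacr3 cells. Of the 66 Sstr1 cells 46 (69.7%) had Cnr1, which is 19.3% of the Cnr1 cells. Of the 57 Tacr3 cells 30 (52.6%) had S1pr3. Prokr2 overlapped with Cnr1 in 55 cells, 46.2% of its own, and with Tacr3 in 0 of 57, and Prokr1 shared 0 cells with Nmbr, Tacr3 and Prlhr. Prlhr was found alone in 17 cells and Nmbr alone in 10.

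The genes whose ln(CPM+1) followed each receptor most closely over the 999 cells, among the 11518 genes with a mean over 2 CPM, were in part the receptors themselves. These correlations share libraries and depth and are a description. For Nmbr they were Tacr3 (Pearson r = 0.47), Rxfp1 (0.44) and Nrp2 (0.42). For Tacr3 they were Nmbr (0.47), the purine receptor gene P2ry1 (0.44) and the scaffold gene Pdlim5 (0.41). Prlhr followed Nmbr (0.55), the osteopontin gene Spp1 (0.42) and the serotonin receptor gene Htr7 (0.37). Sstr1 followed Nmbr (0.41), Tent5a (0.40) and Cnr1 (0.39). For Cnr1 the nearest were the protocadherin gene Pcdh11x (0.56), Zfp536 (0.49) and the neuregulin receptor gene Erbb4 (0.47). For S1pr3 only Tacr3 (0.33) was at 0.3 or more. Prokr1 followed Crh (0.47), Maf (0.37) and Lypd6b (0.36), and Prokr2 followed Erbb4 (0.43), the G protein regulator gene Rgs10 (0.40) and Ret (0.40).

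The ligands of these receptors were mostly rare in the same neurons. Nmb, which encodes neuromedin B, had reads in 261 cells at a mean of 2.87 CPM over all cells, the somatostatin gene Sst in 45, the cortistatin gene Cort in 68, Tac1 in 9 and Grp in 23. Prlh, the ligand gene of Prlhr, had 0 reads in 999 cells, which allows a share of up to 0.30%. Of the 8 ligand genes tested, 0 were called higher and 1 lower in Grik1-high cells, with a median log2 ratio of -0.28 beside -0.01 over all genes, and 0 higher and 2 lower in the S1pr3-high set, with a median of -0.33 beside -0.03. The 1 was Sst and the 2 were Sst, which had 0 reads in both sets, and Nmb, found in 1 of the 20 cells against 162 of 689 (log2 ratio -1.65). Of all 25522 genes, 2.37% were called higher and 2.22% lower in Grik1-high cells. In the S1pr3-high set these shares were 2.72% and 5.23%. The counts of this list and of every list below stand beside these shares, and no difference from them was tested.

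Of 14 receptors related to the 8, 2 were called higher in Grik1-high cells and 0 lower, with a median of -0.14. The 2 were the sphingosine-1-phosphate receptor gene S1pr5, detected in 13 of 35 against 68 of 674 cells (log2 ratio 2.11, higher on 6 of 7 plates), and the somatostatin receptor gene Sstr3, in 9 against 63 cells (2.10, higher on 4 of 7). In the S1pr3-high set S1pr5 was called higher too, in 5 of 20 against 76 of 689 cells (1.27), but was higher on 1 of 4 plates. Called lower there, with a median of -0.28 over the 14, were Sstr2 (-1.81), Sstr3 (-1.15), S1pr2 and Sstr5, the last pair with 0 reads in the set. Npffr1, the most abundant of the 14, with reads in 857 cells, had log2 ratios of -0.45 and -0.21.

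Among genes downstream of these receptors, those of the Gq pathway were called more in the S1pr3-high set than in Grik1-high cells by count. Over all genes, too, more were called in that set, 2.72% higher and 5.23% lower against 2.37% and 2.22%. The difference between the sets was not tested. Of 11 genes of the Gq pathway 0 were called in Grik1-high cells, with a median of -0.12, and in the S1pr3-high set 2 were called higher and 3 lower, beside 2.72% and 5.23% of all genes, with a median of -0.49. The 2 were Gna14, a Gq-class alpha subunit, detected in 19 of 20 against 141 of 689 cells at means of 38.7 and 4.27 CPM (log2 ratio 2.91), and the phospholipase C gene Plcb4, at means of 283 and 133 CPM (1.09). Both were higher in the set on 4 of 4 plates. The 3 were Itpr2 (-2.01), which encodes a calcium release channel, and the phospholipase C genes Plcb2 and Plcb3, which had 0 reads in the set. Of 8 genes of the Gi pathway 0 were called higher in either set, 1, Kcnj6 (-1.32), was called lower in Grik1-high cells and 2, Kcnj3 (-1.36) and Kcnj5, in the S1pr3-high set, with medians of -0.07 and -0.02. These encode subunits of the potassium channels that Gi-coupled receptors open. Of 7 arrestins and receptor kinases 1, Grk4 (1.56), was called higher in Grik1-high cells and 1, Arrb1 (-1.48), lower in the S1pr3-high set, with medians of 0.29 and -0.07.

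Of 8 endocannabinoid genes 0 were called in Grik1-high cells, with a median of 0.25, and 1 was called higher in the S1pr3-high cells, which lacked Cnr1 reads, with a median of 0.19. This was Mgll, whose enzyme degrades an endocannabinoid, at means of 231 against 77.7 CPM (log2 ratio 1.56) and higher in the set on 4 of 4 plates. Of 8 genes of sphingosine-1-phosphate metabolism and transport 0 were called in Grik1-high cells, with a median of 0.10. In the S1pr3-high set Spns2, an exporter of the lipid, was called higher (1.05, on 4 of 4 plates) and Plpp3, a phosphatase, lower (-1.67), with a median of -0.25. Where genes without a read in a set were put at their bound, the medians of the ligand, related receptor, sphingosine-1-phosphate and Gq lists in the S1pr3-high set were -0.66, -0.64, -0.44 and -0.65, and those of the first 2 in Grik1-high cells -0.63 and -0.42.

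Markers of other cells were looked for beside these results. Of 5 serotonin genes 0 were called in Grik1-high cells and 1, the serotonin transporter gene Slc6a4 (-1.25), was called lower in the S1pr3-high set, and Tph2 had log2 ratios of -0.56 and -0.66. The 6 endothelial and the 6 other-neuron markers, among them Slc17a6 and Slc32a1, were at 0 in all cells of both sets, and the 6 microglial markers in all cells of the S1pr3-high set. The summed level of the 6 oligodendrocyte genes had a median of 96.2 CPM (6.68 to 1762) in Grik1-high cells, 95.4 CPM (0 to 531) in the S1pr3-high cells and 109 CPM (0 to 78990) in All DR cells of neither set. For the 6 astrocyte genes, of which Aldoc is detected in 992 cells, these were 698 CPM (59.6 to 1718), 517 CPM (252 to 972) and 747 CPM (0 to 7969). By these medians the summed levels were not higher in the sets than outside them. In Grik1-high cells 1 gene each of the astrocyte, microglial and pericyte lists was called higher, namely Gja1, with reads in 1 of 35 cells, C1qb in 4 and Pdgfrb in 1. In the S1pr3-high cells only Gfap was, with reads in 1 of 20. The part of these markers in the results was not tested.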

How the data were processed

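Single tdTomato-positive cells were made into Smart-seq2 libraries. Per the study's methods and the labels, the authors demultiplexed the reads with bcl2fastq 2.19.0.316, aligned them to mm10 with STAR 2.6.1a, counted them on genes with HTSeq 0.11.2 without strand and left out Y-linked genes. The deposited values are CPM, the counts scaled to the total of each cell. The annotation version is not given in the sources used here. The table holds 999 of 1536 labelled cells, and the other 537 were not analysed here. In each cell 100% of the values above 0 were whole multiples, within 0.001, of what 1 read is worth, so reads were recovered. With 1 sample per dissection no count test could be made on them. The members and gene lists were chosen with earlier results of these data known.

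A gene was detected with at least 1 read. Shares carry exact Clopper-Pearson 95% intervals, and the limit for 0 is 3 cells over the number of cells. Sets were compared by mean CPM, as a log2 ratio with a pseudocount of 1 that was called from 1 in size, over the 25522 genes with a read in 3 cells or more, and again within plates where both sides had 3 cells or more. The cuts of 50 CPM for Grik1 and S1pr3 follow the rule that named the sets, with that of S1pr3 taken from Grik1. Coordinates and exon lengths come from GENCODE M21 and promoter windows from RefSeq. Named genes are the 8 receptors, Grik1 and Zeb2, at most 5 of each list by mean CPM, and the 3 most correlated genes with r of at least 0.3. Sstr3, Gna14, Plcb2, Plcb3, Kcnj3, Kcnj5, Kcnj6, Grk4, Gfap, Prlh, Sox13, Gipr, the limit of 100 CPM within the Grik1-high cells and the divisions by Irx2, Piezo2 and Zeb2 there were chosen after their values were seen. The comparison was also run on simulated counts with a known change put into some genes and without plate effects. That run checks the calculation only and not the results on the receptors. Python 3.11.15, NumPy 2.4.6, SciPy 1.17.1, pandas 2.3.3 and matplotlib 3.10.9 were used. Alternatives were detection from 5 reads or 10 CPM, thinning to 250000 reads, a minimum of 100000 reads per cell, cuts of 20 or 100 CPM, no requirement of Zeb2, all cells of both dissections, pseudocounts of 0.1 or 10 CPM, plates weighted equally, no minimum of cells, and each plate left out in turn.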

Additional observations from a re-analysis of the deposited data

How the results depend on the processing

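The share of cells with any of the 8 receptors, 52.6%, was 43.4% from 5 reads, 36.3% from 10 CPM and 47.2% after thinning to 250000 reads, and lay between 51.3% and 54.0% with a plate left out. The median over the receptors of their level in positive cells, 17.7 CPM, was 23.7 CPM from 5 reads and 16.2 to 19.3 CPM with a plate left out. The 6 receptors called in Grik1-high cells stayed 6 in number with any plate left out, and a cut of 20 or 100 CPM of Grik1 gave 5 higher and 1 lower. They were 7 with a pseudocount of 0.1 CPM, by the addition of Prokr1, and 5 with 10 CPM, by the loss of Prokr2, the only one called lower. The excess of receptors per Grik1-high cell over the other All DR cells, 1.92, was 1.70 to 2.12. In the S1pr3-high set 6 of 7 receptors were called, 5 to 6 with a plate left out, 4 with cells of both dissections, and 7 and 2 with pseudocounts of 0.1 and 10 CPM. Between the dissections 5 were called, 4 to 5 with a plate left out and 0 with a pseudocount of 10 CPM. No called ratio changed sign under any alternative run. Over all genes the share called higher in Grik1-high cells, 2.37%, was 7.15% with a pseudocount of 0.1 CPM and 0.404% with 10 CPM, and those called lower, 2.22%, were 11.6% and 0.325%. With a cut of 20 CPM of Grik1 they were 0.697% and 0.780%, and with 100 CPM 4.62% and 5.36%. For the S1pr3-high set the shares were 2.72%, 6.41% and 0.502% higher and 5.23%, 17.6% and 0.995% lower, and between the dissections 0.901%, 3.71% and 0.180% higher and 1.54%, 5.18% and 0.400% lower. No paired analysis was possible because the labels give no replicate numbers that link cells of the dissections. Depth limits Sstr1 most, with a median of 4 reads in its positive cells. Neither animals nor regions are labelled, and the 36 and 21 cells of the sets give wide intervals.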
